A study of Mus musculus with 17 samples.

Results

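The regions described here are 680 stretches of kidney chromatin that were accessible in most healthy mice and seldom found in diabetic db/db mice, whether or not these had received dapagliflozin. They are called lost regions below, as a name for their pattern and not for a cause. They were chosen by the presence of summits, the positions where accessibility peaked, in ATAC-seq, which reads out transposase-accessible chromatin by sequencing. The 29702 strongest summits of each of 17 libraries, as many as the shortest list held, were widened by 250 bp in both directions and joined where they met, giving 116418 regions. A lost region lies on an autosome, has a summit in 4 or 5 of the 5 healthy libraries, in at most 1 of the 6 untreated db/db libraries and in at most 1 of the 6 treated ones. Of 114001 autosomal regions 680 met the rule (0.596%), which is 3.39% of the 20064 found in 4 or 5 healthy libraries. The mirrored rule, at least 5 of 6 libraries in each db/db group and at most 1 healthy library, found 55 regions. These counts follow from the selection and carry no test.

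All mice were male and entered the study at 8 weeks of age for 6 weeks. The Ctrl group (n = 5) held C57BL/6 mice labelled WT and given saline. The Case group (n = 6) held diabetic mice of the strain BKS.Cg-Dock7m +/+ Leprdb/J, called db/db, given saline. The Dapa group (n = 6) held mice of the same db/db strain given dapagliflozin, an inhibitor of the sodium-glucose cotransporter SGLT2, at 1.0 mg/kg/day by gavage. Strain, leptin receptor genotype and diabetes all differ between healthy and db/db mice and cannot be told apart. Each library was made from 20000 kidney cells. In such bulk samples, fewer cells of a type and less accessibility per cell cannot be told apart.

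In ATAC-seq a transposase cuts DNA where it is not wrapped in nucleosomes, mostly at promoters and at enhancers, which lie in introns or between genes and are bound by the transcription factors of the cell type. In the kidney most cells are tubule epithelium, where homeodomain factors that bind AT-rich sites act at many enhancers. STAT proteins carry cytokine and interferon signals, and leptin also signals through them. A summit shows where a peak was called, and a peak near the detection limit may be called in some libraries and missed in others.

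The sequences below show the centres of some lost regions, picked for features that are not typical of the 680. The letters marked in the first set were in 12.4% of the lost regions and those marked next in 13.7%. A resemblance to another region, shown last, was found for 8.09%. Each sequence is 151 bases of GRCm38.p6 (mm10), plus strand, centred on the median Ctrl summit. Regions are numbered from 1 to 680 by their mean rank in the Ctrl libraries, where rank 1 is a library's strongest summit. The first set holds lost regions with the letters TTAATNATT on either strand, part of the HNF1 site, in capitals. Number 20 had the lowest mean rank among the lost regions with a summit among the strongest 29702 of all 5 Ctrl libraries and of none of the 12 db/db ones. The others lie in Gpc5, near a start of Abcg2 and between genes on chromosome 10.
Intergenic, number 20, chr5:13636780-13636930: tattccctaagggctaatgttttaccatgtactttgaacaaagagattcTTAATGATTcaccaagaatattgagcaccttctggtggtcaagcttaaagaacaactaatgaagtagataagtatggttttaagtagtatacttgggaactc
Gpc5 intron, number 29, chr14:116317651-116317801: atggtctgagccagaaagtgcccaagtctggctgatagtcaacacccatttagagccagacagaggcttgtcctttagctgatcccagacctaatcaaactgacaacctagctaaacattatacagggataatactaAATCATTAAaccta
Abcg2, number 33, chr6:58641203-58641353: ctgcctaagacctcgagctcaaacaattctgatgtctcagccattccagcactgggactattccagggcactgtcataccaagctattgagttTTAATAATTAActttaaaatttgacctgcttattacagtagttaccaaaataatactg
Intergenic, number 37, chr10:99902685-99902835: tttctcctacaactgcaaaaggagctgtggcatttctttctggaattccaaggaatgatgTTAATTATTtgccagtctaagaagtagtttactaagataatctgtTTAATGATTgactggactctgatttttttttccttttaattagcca

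The next sequence, in an intron of Nkain2, has the letters TTCNNNGAA, the core of a STAT site, in capitals.
Nkain2 intron, number 28, chr10:32833774-32833924: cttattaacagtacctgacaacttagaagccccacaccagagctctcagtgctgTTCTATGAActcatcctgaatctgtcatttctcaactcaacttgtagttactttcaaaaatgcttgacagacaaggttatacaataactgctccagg

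The last set shows pairs of lost regions whose sequences resemble each other, with the longest run of bases that both share in capitals. Numbers 45 and 566 belong to the group of look-alike sequences with the most lost regions, and numbers 21 and 104 to the next group, as described further on.
Intergenic, number 45, chr10:38609942-38610092: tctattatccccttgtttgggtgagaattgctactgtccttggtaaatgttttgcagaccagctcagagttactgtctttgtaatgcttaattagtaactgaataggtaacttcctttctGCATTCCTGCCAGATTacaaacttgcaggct
Intergenic, number 566, chr11:46428316-46428466: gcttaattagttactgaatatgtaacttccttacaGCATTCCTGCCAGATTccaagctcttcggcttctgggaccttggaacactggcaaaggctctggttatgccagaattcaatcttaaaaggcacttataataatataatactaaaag
Galnt13 intron, number 21, chr2:54622162-54622312: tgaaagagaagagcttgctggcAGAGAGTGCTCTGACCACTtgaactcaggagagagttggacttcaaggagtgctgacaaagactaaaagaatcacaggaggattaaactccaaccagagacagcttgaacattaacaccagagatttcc
Intergenic, number 104, chr6:26015922-26016072: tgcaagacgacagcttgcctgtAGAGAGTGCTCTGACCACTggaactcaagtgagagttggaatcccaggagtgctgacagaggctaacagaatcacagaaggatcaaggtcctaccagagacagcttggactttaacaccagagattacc

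Among the strongest 29702 summits, the lost regions had a summit in 622 cases in Ctrl 1, 639 in Ctrl 2, 639 in Ctrl 3, 426 in Ctrl 4 and 561 in Ctrl 5. In the Case libraries 1 to 6 the numbers were 61, 34, 12, 25, 88 and 60, and in the Dapa libraries 7 to 12 they were 88, 28, 32, 32, 125 and 50. The rule caps these numbers, so the gap between the groups is a description. Ctrl 4 stood below the other Ctrl libraries, and Dapa 11 had more than any other db/db library. Of the 680 lost regions 167 were found in 5 Ctrl libraries and 513 in 4, and 222 had no summit in any of the 12 db/db libraries. Both extremes were met by 43 regions. Just inside the rule lay 125 regions with 4 Ctrl, 1 Case and 1 Dapa library. Just outside it lay 1172 regions with 3 Ctrl libraries, 232 with 2 Case libraries and 353 with 2 Dapa libraries. The number rested in part on single Ctrl libraries: with at most 1 Ctrl library missing, the rule found 1404 regions without Ctrl 4, 1300 without Ctrl 5 and 1099 without Ctrl 1, since 3 of 4 Ctrl libraries then sufficed.

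The complete lists, which held from 29702 summits in Case 4 to 56659 in Ctrl 2, were then read for the lost regions. Among the strong summits alone 280 of the 680 had 1 in a Case library and 355 in a Dapa library, the most that the rule allows. With the whole list counted, strong summits included, 380 (55.9%) had a summit in at least 1 Case library and 458 (67.4%) in at least 1 Dapa library, so the weaker summits added 100 and 103 regions. The complete lists left 465 within the rule's limits for the db/db groups and 127 without a summit in any db/db library, 18 of which were found in all 5 Ctrl libraries. In 49 lost regions at least 4 of the 12 db/db libraries had a summit. By library the complete lists gave 118, 41, 12, 25, 195 and 97 for Case 1 to 6 and 199, 65, 40, 36, 207 and 99 for Dapa 7 to 12. The longest db/db lists, those of Case 5 with 51292 summits and Dapa 7 with 49442, gave 195 and 199, whereas Dapa 8 with 47564 summits gave 65 and Dapa 11 with 41790 gave 207.

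**Figure D1:**
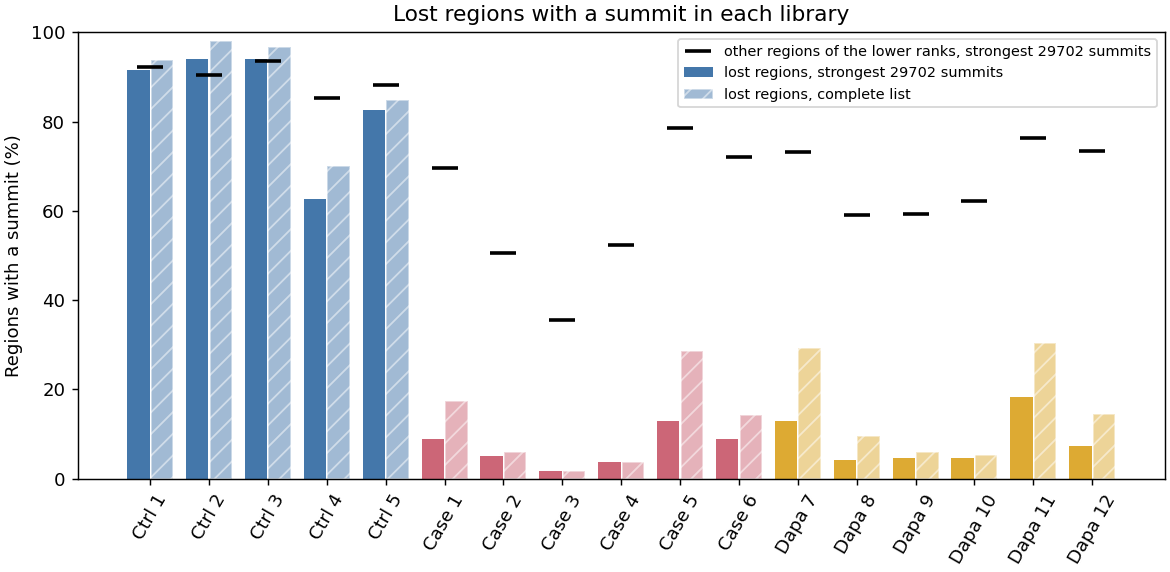
Share of the 680 lost regions with a summit in each library (vertical axis, %), among the strongest 29702 summits (plain bars) and in the complete list (hatched bars), for Ctrl (blue), Case (red) and Dapa (yellow) libraries. Black marks give the 6054 other regions found in 4 or 5 Ctrl libraries with a mean Ctrl rank beyond 14851, whose shares ran from 85.3% to 93.7% in Ctrl and from 35.6% to 78.5% in the db/db libraries.

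Lost regions were weaker in the healthy kidneys than other regions found in most Ctrl libraries, though not than autosomal regions in general. Their median mean rank over the Ctrl libraries was 19216, against 11012 for the other 19384 regions found in 4 or 5 Ctrl libraries and 19957 for all autosomal regions. The strongest lost region had a mean rank of 7919. No region with a mean rank up to 4950 was lost, and 5 of 4450 between ranks 4951 and 9900 were. Between ranks 24752 and 29702 the number was 26 of 117 (22.2%). In the Ctrl libraries the median score of lost regions, the caller's −log10 p-value or q-value, ran from 5.25 to 8.55, against 9.62 to 13.7 for the other regions. Because of this difference in strength, the lost regions are compared below with the 6054 other regions in 4 or 5 Ctrl libraries whose mean rank lay beyond 14851, called weaker regions, of which the lost regions share the rank range in part. The positions of the Ctrl summits within a lost region spanned a median of 81.5 bp, against 98.0 bp in the weaker regions and 82 bp in all other regions of 4 or 5 Ctrl libraries.

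**Figure D2:**
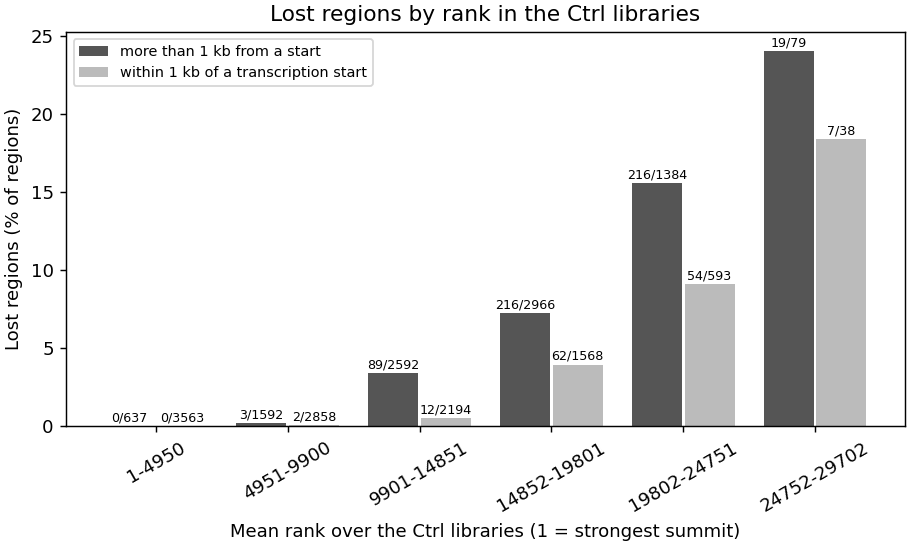
Lost regions as a percentage of the regions found in 4 or 5 Ctrl libraries (vertical axis), by mean rank over the Ctrl libraries (horizontal axis), within 1 kb of a transcription start (light bars) and farther away (dark bars), with the numbers of regions above the bars. In each range beyond rank 4950 the share was higher away from transcription starts, up to 24.1% against 18.4% in the last.

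Lost regions had a lower GC content than the sets they were compared with. They lay less often at promoters than other regions found in most Ctrl libraries, though as often as all autosomal regions. Their centres were within 1 kb of a transcription start in 20.1% (137 regions), in introns in 37.5% (255), in exons in 2.50% (17) and between genes in 39.9% (271). The weaker regions had 34.3% within 1 kb of a start and 26.4% between genes, and all autosomal regions 20.1% and 39.8%. The median distance to a start was 11489 bp in the lost regions and 3798 bp in the weaker ones. The GC content of the central 301 bases had a median of 45.5% in the lost regions, 52.5% in the weaker regions, 57.1% in all other regions of 4 or 5 Ctrl libraries and 50.2% over all autosomal regions. Under 45% GC lay 48.4% of the lost regions and 15.6% of the weaker ones.

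The share of regions that were lost fell with GC content, also when rank and promoters were held apart. Among regions with a mean rank beyond 14851 and more than 1 kb from a start, 105 of 310 under 40% GC were lost (33.9%). Between 40 and 45% GC it was 142 of 786 (18.1%), between 45 and 50% 127 of 1290 (9.84%), and between 50 and 55% 54 of 1168 (4.62%). At 60% GC or more, 5 of 297 were lost (1.68%).

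GC content also went with the presence of summits in the db/db libraries outside the lost regions. The regions compared were selected on a summit in 4 or 5 Ctrl libraries, which fixes high shares in Ctrl. Leaving out the lost regions removed 329 of 2342 regions under 45% GC and 351 of 17722 others, all with few db/db summits, so the db/db shares also depend on the rule and the values below are a description. Among the regions in 4 or 5 Ctrl libraries that were not lost and had under 45% GC, the Ctrl libraries 1 to 5 had a summit in 94.9%, 95.7%, 96.9%, 86.7% and 91.7%. The Case libraries 1 to 6 had 72.4%, 52.9%, 24.1%, 46.2%, 74.0% and 71.5%, and the Dapa libraries 7 to 12 had 75.4%, 46.4%, 64.3%, 63.0%, 81.4% and 75.8%. For such regions of 45% GC or more the shares were 94.3% to 97.6% in Ctrl, 65.9% to 92.1% in Case and 82.3% to 90.7% in Dapa. In each of the 17 libraries the AT-rich regions were found less often than the others, by most in Case 3 and Dapa 8. Of all 29702 strongest summits of a library, 13.7% to 17.5% were under 45% GC in Ctrl, 7.84% to 14.5% in Case and 8.29% to 14.5% in Dapa. Case 3, Case 4 and Dapa 8 had the lowest shares. Without these 3 libraries, a choice made after the data were seen, the rule found 853 regions. Its limits were kept at 1 Case and 1 Dapa library, so with fewer libraries this number was bound to rise. The part that a library's recovery of AT-rich DNA has in the choice of lost regions was not tested.

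**Figure D3:**
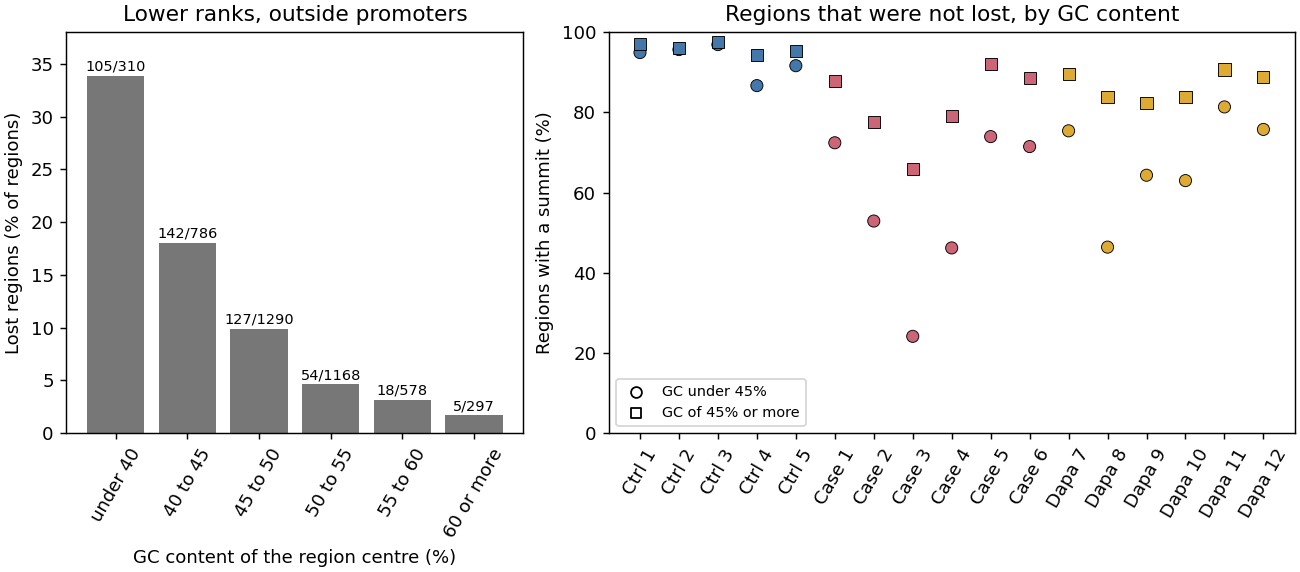
Left, lost regions as a percentage of the regions with a mean Ctrl rank beyond 14851 and more than 1 kb from a transcription start (vertical axis), by GC content (horizontal axis, %), with numbers above the bars, falling from 33.9% to 1.68%. Right, share of the regions in 4 or 5 Ctrl libraries that were not lost with a summit in each library (vertical axis, %), for regions under 45% GC (circles) and of 45% or more (squares), in Ctrl (blue), Case (red) and Dapa (yellow); circles lie below squares, by most in Case 3 and Dapa 8.

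Short motifs were searched on both strands of the central 301 bases, and a match is a run of letters, not a shown binding site. The HNF1 letters TTAATNATT were in 84 lost regions (12.4%), against 5.55% of the weaker regions and 2.43% of all autosomal regions. Away from promoters the shares were 14.5% and 7.26%. Among regions of 40 to 50% GC, a comparison added after the data were seen, they were 11.9% of 352 lost regions and 10.6% of 2061 weaker ones, a smaller gap than over all GC contents. All other regions of 4 or 5 Ctrl libraries, the stronger ones included, had 12.3% of 4354 at this GC content, above the lost regions. The regions with HNF1 letters lay in introns in 34 cases and between genes in 44, and 36 of the 84 had no db/db library among the strongest summits, as did 222 of all 680. By the complete lists it was 19 of the 84 and 127 of the 680. Numbers 20, 29, 33 and 37, printed above, are among the 84 regions with HNF1 letters.

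The STAT letters TTCNNNGAA were in 93 lost regions (13.7%), against 8.89% of the weaker and 8.08% of all autosomal regions. At 40 to 50% GC the shares were 16.5%, 12.1% and 9.58%. HNF1 and STAT letters stood together in 14 lost regions, among them the Gpc5 intron of number 29, whose STAT letters lie outside the bases printed. The letters of SP/KLF factors (GGGCGG), typical of CpG-rich promoters, were in 12.8% of the lost and 25.1% of the weaker regions, and at 40 to 50% GC in 2.56% and 4.95%. CTCF letters (AGGGGGC) were in 5.44% and 8.56%, and at 40 to 50% GC in 3.69% and 3.01%. AP-1 letters (TGANTCA) were in 10.0% and 9.05%, and at 40 to 50% GC in 9.66% and 11.5%. HNF4 letters (CAAAGTCCA) were in 3.97% and 3.32%, and at like GC in 3.13% and 4.56%. The PPAR DR1 letters GGTCANAGG were in 2.50% and 2.76%, and at like GC in 3.41% and 3.01%. FOX letters (TGTTTAC) were in 5.74% and 3.58%, and at like GC in 5.11% and 5.34%. C/EBP letters (TTGCNNAA) were in 13.4% and 11.9%, and at like GC in 15.1% and 17.2%. The letters of steroid receptors (ACANNNTGT) were in 7.94% and 7.70%, and at like GC in 7.95% and 11.5%. For these 7 of the 16 motifs, from CTCF to the steroid receptors, the direction of the difference turned at like GC content. TEAD letters (ACATTCCA) were in 3.38% and 1.83%, and at like GC in 3.13% and 2.23%.

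**Figure D4:**
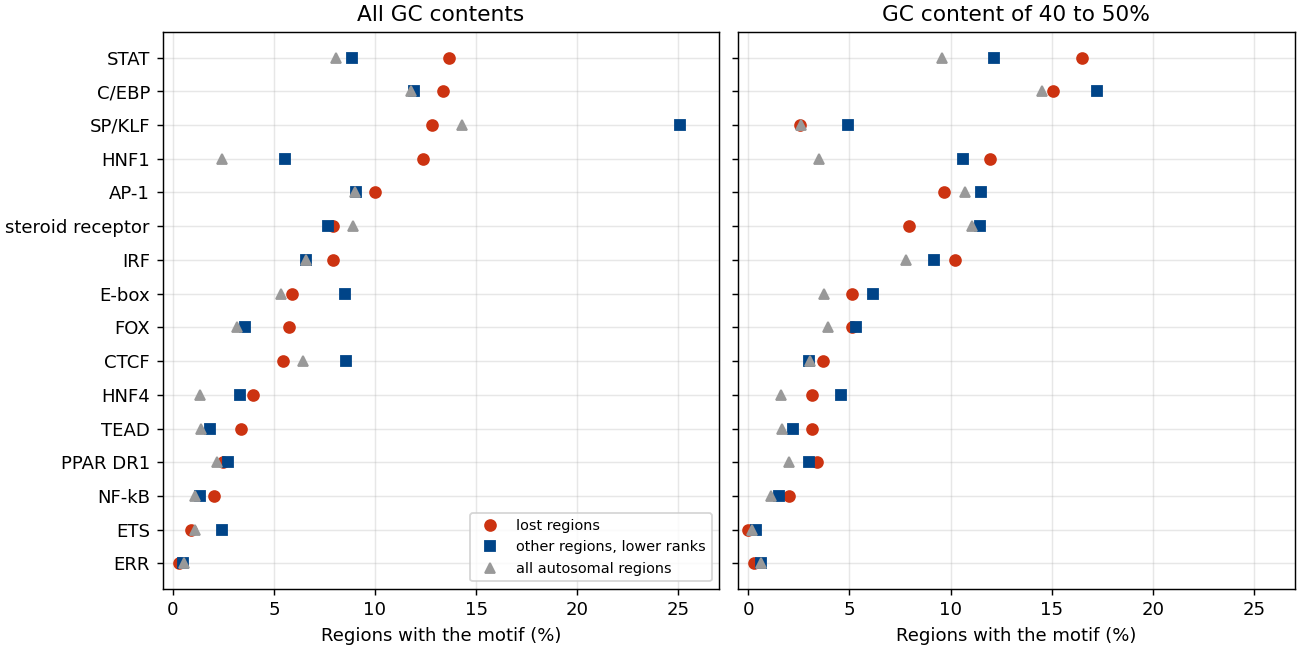
Percentage of regions (horizontal axis) with each of 16 motifs in the central 301 bases, in lost regions (red circles), other regions of mean Ctrl rank beyond 14851 (blue squares) and all autosomal regions (grey triangles), for all GC contents (left) and for 40 to 50% GC (right). HNF1 letters were in 12.4% of lost and 5.55% of weaker regions on the left, and in 11.9% and 10.6% on the right.

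Some lost regions were copies of related repeats. A look-alike was defined as another region of the 20064 whose central bases aligned at 80% identity or more over at least 50% of their length, a search added after the printed sequences had been seen. Of the lost regions 55 had a look-alike (8.09%), against 5.27% of the other regions in 4 or 5 Ctrl libraries, of all ranks and GC contents. The look-alikes formed 225 groups, 27 of which held a lost region. The group with the most held 41 regions, 13 of them lost (31.7%), with a median pairwise identity of 85.2%, a median GC content of 39.2% and 73.4% of bases soft-masked as repeats in the reference. Its 13 lost regions had a strong summit in 12, 13, 12, 7 and 10 cases in Ctrl 1 to 5, in 0, 0, 1, 0, 1 and 1 in Case 1 to 6, and in 1, 0, 1, 0, 5 and 0 in Dapa 7 to 12. The 28 regions of the group that were not lost had 18 to 28 in the Ctrl libraries, 3 to 15 in the Case libraries and 4 to 20 in the Dapa libraries. These regions were selected on a summit in 4 or 5 Ctrl libraries, so their high Ctrl numbers follow from the selection, and their db/db numbers depend on the rule that parts lost from other regions. The lost regions of the group lie far apart, in introns of Sntg1, Tmprss11f and Aass, in an exon of Tmem167, within 1 kb of a start (number 281) and between genes, among them numbers 45 and 566, which aligned at 80.1% identity over 216 bases.

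The next group held 78 regions of which 8 were lost (10.3%, against 3.39% of all regions in 4 or 5 Ctrl libraries), with 90.5% of bases masked. Numbers 21 and 104, printed above, belong to it and aligned at 85.4% identity over 295 bases. The third group held 11 regions of which 4 were lost (36.4%). None of these 4 had a summit in any db/db library, also by the complete lists. This group and the group with the most lost regions both had a median GC content of 39.2%. Of all regions in 4 or 5 Ctrl libraries under 40% GC, 21.4% were lost. The groups were singled out after their values were seen, and a difference from other regions of like GC content was not tested. Near-identical copies elsewhere in the genome, at 95% identity over 90% of the central bases, were found for 29 lost regions (4.26%) and for 4.81% of the weaker regions. Number 410 on chromosome 13 had the most, 52 copies, and reads from such sites can be placed at more than 1 of them.

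The 10 named regions with the strongest summits among those found in all 5 Ctrl libraries and in none of the strongest summits of the 12 db/db libraries lay in introns of Nkain2, Gpc5, Siae, Gm609 and Acss3, next to the start of Rad51ap2 and, for 4 of them, between genes. Gpc5 encodes glypican 5, a heparan sulfate proteoglycan of the cell surface. Its lost region, number 29 at chr14:116317432-116317998, had ranks of 11697, 11504, 13786, 12995 and 11276 in Ctrl 1 to 5 and no summit in any db/db library, also in the complete lists. A further lost region of Gpc5, number 304 at chr14:115410582-115411253, was found in 5 Ctrl libraries and by its complete list in 1 Dapa library. Nkain2 encodes a membrane protein that interacts with the sodium pump. Number 28 at chr10:32833567-32834106, in its intron, had ranks of 7564, 9143, 15132, 8608 and 20557 and likewise no db/db summit.

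Acss3 encodes an acyl-CoA synthetase of mitochondria. Number 89 at chr10:107116174-107116703, in an intron 7135 bp from an annotated start, had ranks of 14370, 16151, 10055, 11146 and 20620 in Ctrl and no summit in the complete db/db lists. Siae encodes an esterase that removes acetyl groups from sialic acids. Number 64 in its intron had Ctrl ranks of 9792 to 18126, and in the complete lists a summit at rank 33099 in Case 1, 43135 in Dapa 7, 32211 in Dapa 10 and 39251 in Dapa 11. That these ranks lie beyond those in Ctrl follows from the rule for these 10 regions. The intergenic number 20 at chr5:13636595-13637130 had Ctrl ranks of 8506 to 14602 and only a summit of rank 29966 in Dapa 12, just beyond the strongest 29702.

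Of the 137 lost regions within 1 kb of a start, 110 lay nearest to a start of a protein-coding gene. The strongest was at Nr4a2, an orphan nuclear receptor gene that responds early to many stimuli. Number 3 at chr2:57123880-57124467, 176 bp from an annotated start, had ranks of 6193, 8335, 6870 and 14378 in Ctrl 1, 2, 3 and 5 and no summit in Ctrl 4. It had ranks of 21607 in Case 1 and 13946 in Dapa 7, and in the complete lists 32476 in Dapa 8 and 33912 in Dapa 11, so the Dapa 7 value lay within the Ctrl range. Abcg2 encodes an efflux transporter that exports urate and many drugs across apical membranes. Number 33 at chr6:58640939-58641533 lay 696 bp from an annotated start well inside the gene, which spans chr6:58584523-58695676. This region had ranks of 7365, 17746, 11740 and 13707 in Ctrl 1, 2, 3 and 5, of 39521 in Ctrl 4 and of 20180 in Dapa 12, with no Case summit. Myb, a transcription factor gene of proliferating progenitors, had number 27 at its start, with Ctrl ranks of 4343 to 20583 and a rank of 26249 in Dapa 7. The remaining starts by this order were those of Gm4924, Tspan5, Rad51ap2, Zfp518b, Trim6, Zfp61 and St8sia4.

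The 302 genes of 12 lists for kidney cell types and pathways, taken with 10 kb to each side, held 449 regions found in 4 or 5 Ctrl libraries, of which 8 were lost (1.78%, against 3.39% of all such regions). None of the regions at thick limb and distal tubule, collecting duct, renal transcription factor, fatty acid oxidation, leukocyte, or endothelial and stromal genes was lost, with 0 of 17, 14, 56, 49, 20 and 16. Glucose and insulin signalling genes had 3 of 62 (4.84%), podocyte genes 1 of 30, proximal tubule transport genes 1 of 53, interferon genes 1 of 28, injury and hypoxia genes 1 of 43 and circadian clock genes 1 of 65. Numbers this small do not set the lists apart, and most of the 8 regions are described next.

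Insr encodes the insulin receptor. Number 226 at chr8:3190892-3191548 lay in an intron, 1455 bp from an annotated start well inside the gene, which spans chr8:3122061-3279617. This region had ranks of 12073, 15002, 15856, 22118 and 22166 in Ctrl 1 to 5, 38241 in Case 1 and 16433 in Case 2, and no Dapa summit. The Case 2 value lay within the Ctrl range. Pfkfb3 encodes an enzyme that makes an activator of glycolysis. Number 251 at chr2:11545923-11546584 in its intron had Ctrl ranks of 11514 to 24699 and a rank of 21633 in Dapa 11. Stat3 carries leptin and interleukin signals to the nucleus. Number 445 at chr11:100908060-100908616 lay 112 bp from an annotated start well inside the gene, which spans chr11:100885098-100939540. This region had Ctrl ranks of 16229 to 27167, of 19304 in Dapa 10 and, in the complete lists, of 45503 in Case 5 and 45173 in Dapa 7.

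Slc22a12 encodes URAT1, which takes urate back up in the proximal tubule. Number 341 at chr19:6542872-6543466, 109 bp from an annotated start and within the overlapping gene Nrxn2, had Ctrl ranks of 9927 to 26054, of 10469 in Case 1, 15264 in Dapa 7 and 32619 in Dapa 9. Both db/db summits of the strong lists lay within the Ctrl range. Magi2, a scaffold protein of the podocyte slit diaphragm, had number 183 in an intron, with Ctrl ranks of 7496 to 26045 and a rank of 24974 in Case 5. Nr1d2, a clock repressor gene, had number 190 in an exon, with 1 near-identical copy elsewhere, Ctrl ranks of 9911 to 23952 and a rank of 30253 in Case 1. Number 331 lay inside the protein-coding gene Gm49321 and 19 bp from the start of the noncoding gene Gm15283. Among the listed genes it was nearest to Hif1a, whose start lies 12163 bp away.

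**Figure D5:**
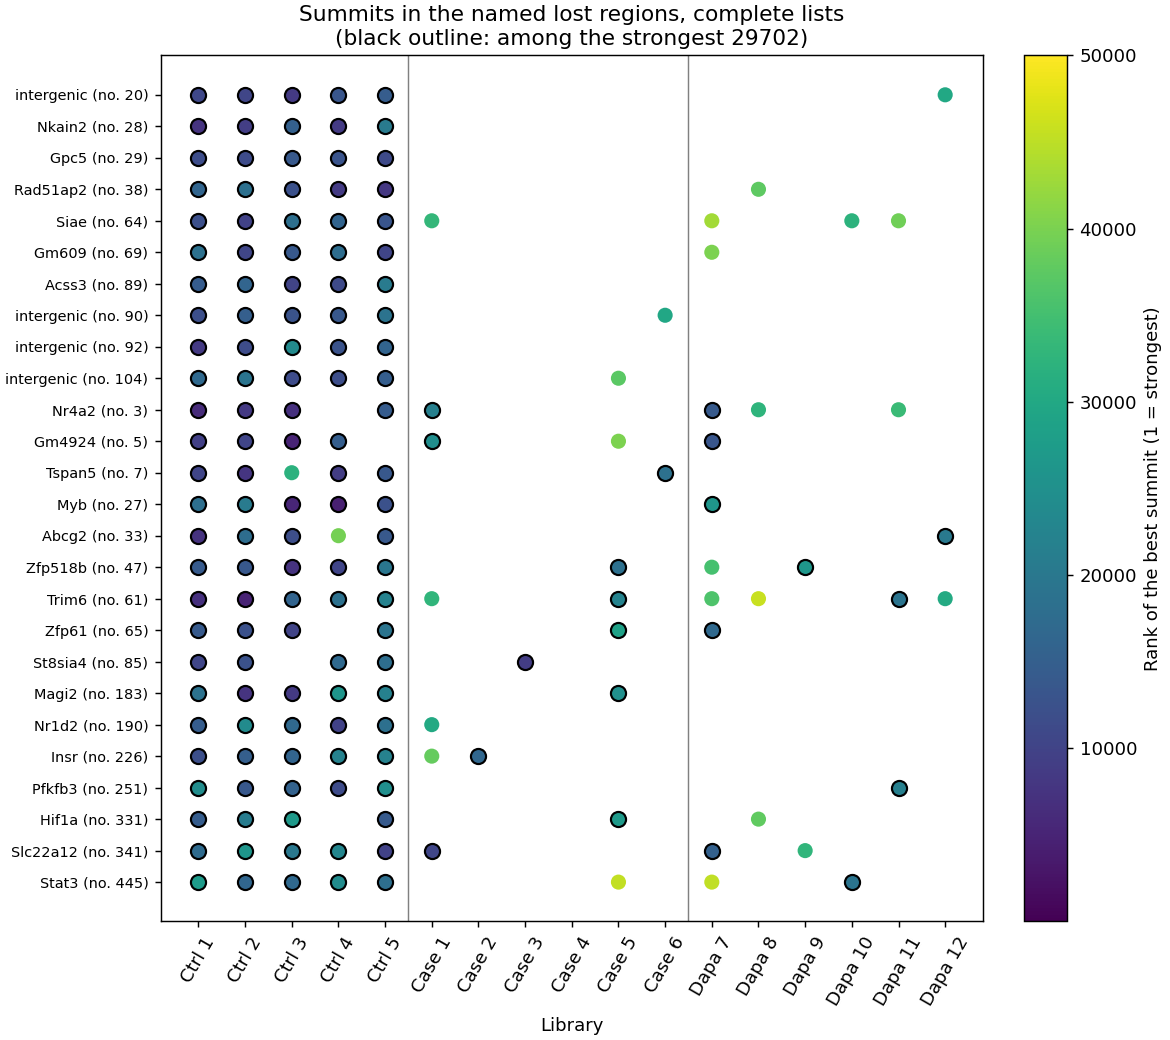
Rank of the best summit (colour, 1 is the strongest) in each of 17 libraries (horizontal axis) for 26 named lost regions (vertical axis), from the complete lists. Black outlines mark summits among the strongest 29702, and an empty place means no summit. Ctrl columns are nearly filled and the Case and Dapa columns hold scattered summits, with none in Case 4 for these regions.

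Lost regions were spread over all 19 autosomes. They made up 1.69% (chromosome 11) to 5.06% (chromosome 3) of the regions found in 4 or 5 Ctrl libraries. Within 1 Mb of another lost region lay 346 of them, and within 10 kb 16. Such counts were not made for other regions, so they do not show whether lost regions cluster. Of 499 windows of 5 Mb that held such regions, 157 had no lost region, and 3 had 7 each: chromosome 2 from 15 to 20 Mb (7 of 32 regions), chromosome 10 from 95 to 100 Mb (7 of 44) and chromosome 12 from 35 to 40 Mb (7 of 18, 38.9%). The window on chromosome 12 holds Dgkb, which encodes a diacylglycerol kinase. All 3 of its regions in 4 or 5 Ctrl libraries were lost, against 3.39% of all such regions, and numbers 146 and 177 had no summit in any complete db/db list. Number 288 in Agmo, the alkylglycerol monooxygenase gene in the same window, was likewise without db/db summits. Pcca, which encodes a subunit of mitochondrial propionyl-CoA carboxylase, had 3 lost regions of 6. A lost region lay in the body of 316 protein-coding genes, 17 of which had more than 1, among them Grb10, which encodes an adaptor that dampens insulin receptor signalling, with 2 of 5, and the Wnt antagonist gene Frzb with 2 of 2. The windows and the genes with more than 1 lost region were picked as the highest of many. Foxn3 and Lrmda, by contrast, had 1 of 10 each.

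Whether dapagliflozin went with the presence of summits was compared between Dapa and Case in the complete lists, since the rule used the strongest summits and capped both groups in the same way. By Fisher's exact test per region, 2-sided, an unadjusted p under 0.05 was found for 86 of the 8634 autosomal regions that could reach it (0.996%). Summits were more frequent in Dapa for 64 of the 86 (0.741% of those tested) and in Case for 22. None passed with Benjamini-Hochberg adjustment (0%). With 1 db/db library left out the test is of 5 against 6 libraries and more regions can reach such a p. Without Case 5 it was found for 292 of 12675 (2.30%), and without any 1 other Case or Dapa library for 138 to 213, which is 1.05% to 1.59% of those tested. Of the 680 lost regions 12 had summits in enough db/db libraries to be tested, and 0 of them had an unadjusted exact p under 0.05, the smallest being 0.242. The rule's cap limits the difference that a lost region can show.

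More Dapa than Case libraries had a summit in 251 lost regions (36.9%), fewer in 146 (21.5%) and as many in 283, counted in complete lists whose median length was 34739 summits in Case and 40057 in Dapa. Case 3 and Case 4 added 0 lost regions beyond the strongest 29702 summits. For the other regions of 4 or 5 Ctrl libraries the shares by the complete lists were 34.9% and 11.3%, and over all autosomal regions 36.3% and 35.3%. Among the lost regions with an excess of 3 Dapa libraries, those in Nit2, Nipa1 and Napsa had the lowest mean Ctrl ranks. Nit2 encodes an amidase of glutamine metabolism, and number 93 in its intron had a complete-list summit in Case 1 and in Dapa 7, 9, 11 and 12 (exact p = 0.242, adjusted 1). Nipa1 encodes a magnesium transporter, and number 195 near its start had one in Case 5 and in Dapa 8, 9, 11 and 12. Napsa, the gene of an aspartic protease of proximal tubule and lung, had number 196 in an intron, with Dapa 9, 11 and 12 and no Case library. In the other direction number 470 at the start of Stpg2 had Case 1, 4 and 5 and no Dapa library.

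The kidney origin of the libraries was checked on summits within 1 kb of the starts of 13 kidney marker genes, of which 6 to 10 had a strong summit per library. Aqp2 and Slc12a1, which mark collecting duct and thick limb, were among the 3 that had none in any library. Of 10 leukocyte genes 0 or 1 had one in the Ctrl libraries and 0 to 2 in the Case and in the Dapa libraries, and Ptprc and Itgam were among the 6 that had none in any. Of 6 adipocyte genes 0 to 2 had one, of 4 erythroid genes 0 or 1, and the 5 hepatocyte genes had none. The Ctrl libraries had 6 to 9 kidney genes, the Case libraries 8 to 10 and the Dapa libraries 8 or 9.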

How the data were processed

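Kidney ATAC-seq libraries of 17 mice were analysed. Per the labels the authors processed the reads with Bowtie2 and MACS2 on mm10. Peaks were called in each library on its own. The deposited lists give summit positions and a score on the −log10 scale. Whether it is a p-value or a q-value is not given in the sources used here. Read depth is unknown, so no counting intervals are given.

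The strongest summits were merged into regions as described above with pandas 2.3.3, numpy 2.4.6 and SciPy 1.17.1 in Python 3.11.15. Positions were annotated with GENCODE release M21 on GRCm38.p6. Near-identical copies were sought with minimap2 2.31 and look-alikes with BLAST 2.17.0 at an E-value of 1e-10. Fisher's exact tests were adjusted over the regions whose number of libraries allows an unadjusted p under 0.05, and the script was tested on simulated data. Replicates are separate mice.

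The lost regions, gene lists and motifs were chosen with earlier results of these data known. Named regions, none on chromosome 18, are the first 10 by mean Ctrl rank with 5 Ctrl and 0 db/db libraries, the first 10 within 1 kb of a protein-coding start, those at listed genes, up to 4 in each of the 3 densest windows, the first 3 with the largest difference between Dapa and Case in either direction, and those with the most copies. Not all of these are described, and some items are not reported here. Other lost regions named above, in look-alike groups or in genes with more than 1, were singled out after their values were seen. The alternatives tried are given in the closing section.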

Additional observations from a re-analysis of the deposited data

Results flagged for a closer look

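Dapa 8 lay far from the other Dapa libraries in the share of its strongest summits with a GC content under 45%, which was 8.29% against 12.5% to 14.5% in the other Dapa libraries. Of 18 groups of values examined in this way 1 stood out, and chance gives 0.9.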

How the results depend on the processing

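The number of lost regions was 680 as reported, 694 and 643 with extensions of 100 and 500 bp and 915 with scores of at least 5. It was 285 with 50% as many summits of each list, 1059 with all summits, 43 for 5 Ctrl and 0 db/db libraries, and 1521 for at most 2 Case and at most 2 Dapa libraries. Leaving out 1 library gave 715 to 1404, the highest without Ctrl 4, and without Case 3, Case 4 and Dapa 8 it was 853. Leaving out libraries eases this rule and the mirrored one, so such numbers were bound to rise. The mirrored rule gave 28 regions with all summits, 14 with scores of at least 5, 74 with 50% as many summits and 67 to 121 with 1 library left out, the highest without Ctrl 4, against the 55 reported. In the same order of settings (fewer summits, all summits, scores of at least 5, the strict rule, the loose rule), the share of lost regions with a complete-list Case summit was 92.6%, 44.9%, 74.8%, 25.6% and 76.1%, and with a Dapa summit 97.9%, 55.4%, 83.3%, 39.5% and 83.2%. With 1 library left out these shares were 48.5% to 61.7% and 62.1% to 70.5%. Regions with an unadjusted p under 0.05 between Dapa and Case numbered 86 to 292 with 1 library left out, the highest without Case 5 (2.30% of 12675 tested, against 0.996% of 8634), and 81 to 92 with other extensions or complete-list scores of at least 3. None passed adjustment under these settings or with adjustment over all autosomal regions. Lost regions with an unadjusted p under 0.05 numbered 0 with the other extensions, with that score limit and with 1 library left out. The other settings were not run for this comparison. Of 333 alternative values 244 lay close to the reported ones and 89 moved. These are counts, shares and a median rank, which have no direction. Close meant within 1.5 times for a count, so that 995 lost regions without Ctrl 3 passed. For a share it meant within a binomial interval that takes regions as independent. For the median rank it meant within the SD of 936 over the Ctrl libraries. These limits are loose and are no test. The motif shares at 40 to 50% GC are given with the motifs above. Shares near starts, in introns and between genes stayed within 1.5 times of those reported. The causes of the shifts were not tested. No paired analysis was possible because the tested groups, Case and Dapa, share no replicate numbers in the labels.

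Unknown depth limits all of this: an absent summit shows that no peak was called, not that chromatin was closed. Ranks compare summits within a library, and lists of different length reach different scores at rank 29702, from 2.01 in Case 4 to 5.53 in Ctrl 2.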
